A study of Mus musculus with 2 samples.

Results

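The genes described here are 10 genes of MHC class I antigen presentation in endothelial cells of the mouse retina: B2m, H2-K1, H2-D1, H2-T23, Tap1, Tap2, Tapbp, Psmb8, Psmb9 and Nlrc5. They were chosen by name for their known role, and each was found in both count tables by its Ensembl identifier, so 10 of 10 genes were measured among 19813 genes with a symbol in both tables. The cells came from retinas of wild-type C57BL/6 mice at postnatal day 6 (P6), when the vessels are still growing out, and at postnatal day 15 (P15). Cells carrying CD31, an endothelial surface protein, and lacking CD45, a surface protein of leukocytes, were sorted and sequenced as 1 droplet library at each age, in which each captured transcript is counted as a unique molecular identifier (UMI). No groups other than the 2 ages were given, the number of mice behind each library was not given in the sources used here, and age and library cannot be told apart. With 1 library per age no test between ages was possible, so every interval below is a 95% interval for counting error only.

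MHC class I molecules carry peptides from inside the cell to its surface, where CD8 T cells read them. A heavy chain (H2-K1, H2-D1 or the non-classical H2-T23) folds with the light chain B2m, the immunoproteasome subunits Psmb8 and Psmb9 cut peptides, Tap1 and Tap2 form the pump that moves peptides into the endoplasmic reticulum, and tapasin (Tapbp) helps load them. Nlrc5 is a regulator that acts at class I promoters, and interferons raise the transcription of most of these genes in many cell types.

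Of the 10 genes, 8 lie on mouse chromosome 17 (GRCm38, GENCODE M21). Tap1 (chr17:34187553-34197225, plus strand) and Psmb9 (chr17:34181987-34187764, minus strand) overlap head to head, with up to 212 shared exonic bases on opposite strands. Psmb8 (chr17:34197721-34201454) and Tap2 (chr17:34203527-34216321) follow on the plus strand. H2-K1 (chr17:33996017-34000347, minus strand), Tapbp (chr17:33915899-33929292, plus strand), H2-D1 (chr17:35262730-35267499, plus strand) and H2-T23 (chr17:36029773-36032855, minus strand) complete the chromosome 17 members. B2m is at chr2:122147686-122153083 and Nlrc5 at chr8:94434356-94527272, both on the plus strand. The heavy chains share part of their sequence with other genes. Of the distinct 31-base words of H2-K1 transcripts, 22.8% also occurred in transcripts of another gene, and 11.1% in those of H2-D1. The share with any other gene was 26.7% for H2-D1, 24.5% for H2-T23, 0.825% for Tap1 and 0 for B2m, Psmb9 and Nlrc5. The split of UMIs among heavy chains is therefore less certain than the level of B2m, since how shared reads were assigned was not given in the sources used here. Tap1 and Psmb9 overlap on opposite strands and shared no such word, so their split would be uncertain only if strand was ignored in counting.

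RefSeq promoters (250 bases before the start site, GRCm38.p6) were at hand for 8 of the 10 genes and not for Tap2 and Nlrc5. They were searched on both strands for GAAANNGAAA, the core of the element bound by interferon-activated factors, and for CCAAT and TGACG, letters within the module at which Nlrc5 acts. GAAANNGAAA occurred in 2 of the 8 (B2m and H2-T23) and in 3.04% of 27025 promoters. CCAAT occurred in 7 of the 8 (34.5% of promoters) and TGACG in 5 (17.9%). In B2m, H2-K1 and H2-D1, TGACG was followed, after exactly 20 bases, by CCAAT read on the other strand. This spacing was looked for after the sequences had been seen, and 25 of the 27025 promoters (0.0925%) held it on either strand. H2-K1 had 2 entries with start sites 14 bases apart, and both held the pair. A match is a description of letters and not a measured binding site. The stretches are printed to show these letters, in capitals, 5′ to 3′ on the strand of the gene, and those of H2-T23 are GAAANNGAAA on the other strand. B2m is chr2:122147537-122147685 on the plus strand, H2-K1 is chr17:34000359-34000388 on the minus strand, H2-D1 is chr17:35262993-35263022 on the plus strand and H2-T23 is chr17:36032806-36032835 on the minus strand. The H2-D1 and H2-T23 stretches lie before the RefSeq start site but inside the GENCODE gene bounds given above. Each overlaps 1 annotated exon, and the B2m and H2-K1 stretches overlap 0.
B2m: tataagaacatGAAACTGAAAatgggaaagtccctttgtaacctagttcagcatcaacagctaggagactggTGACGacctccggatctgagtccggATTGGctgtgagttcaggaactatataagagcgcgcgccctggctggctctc
H2-K1: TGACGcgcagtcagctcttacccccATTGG
H2-D1: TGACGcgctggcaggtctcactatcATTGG
H2-T23: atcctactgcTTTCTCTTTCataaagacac

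The P6 table held 1984 barcodes and 13958124 UMIs, and that of P15 held 2141 barcodes and 11589641 UMIs. After the exclusion limits of the study, 1424 P6 cells (median 4985.5 UMIs) and 1644 P15 cells (median 4214.5 UMIs) remained, and these are the cells described unless stated. At least 2 of 6 endothelial markers were found in 99.4% of P6 cells and 99.3% of P15 cells. Levels are given in CPM, the UMIs of a gene per 1000000 UMIs of the cells they were summed over. Summed leukocyte markers reached 1.96 CPM at P6 and 6.51 at P15, and Ptprc (CD45) and Cd3e had no row in either table. The lowest row of either table summed to 1 UMI, so a gene without any UMI has no row. Pericyte markers summed to 10.6 and 264 CPM, retinal neural markers to 15.4 and 85.1 and erythroid markers to 17.5 and 144 at P6 and P15. Cells that held at least 2 leukocyte, 2 pericyte or 2 retinal neural markers were left out in an alternative. The P15 to P6 ratio of the summed class I level given below was then 0.836 (0.818 to 0.855), against 0.835 with them. In that alternative 6 members passed the 1.5-fold limit, 2 higher and 4 lower. Erythroid markers were not used to leave out cells, and at least 2 of them were found in 6.08% of P15 cells. The tables shared 7 barcode sequences, of which 2 belonged to cells that passed in both.

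Class I transcripts were plentiful in both libraries. Summed over the 10 genes, the level was 2462 CPM at P6 and 2055 at P15, a ratio of 0.835 (95% interval 0.817 to 0.853). Most of this sum came from B2m and H2-D1, with 8438 and 6026 of 18831 UMIs at P6. At P15 they gave 4788 and 6547 of 15149 UMIs. The summed level therefore mainly follows these genes. Of the 9 genes with at least 50 UMIs over both ages, 1 was at least 1.5-fold higher at P15, where 18.8% of all 10972 genes were, and 4 were at least 1.5-fold lower, where 11.8% of all genes were. The median P15 to P6 ratio was 1.10 over these 9 genes and 1.09 over all genes. The members did not share a direction, and the plot of levels by age shows the genes crossing between ages.

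**Figure D1:**
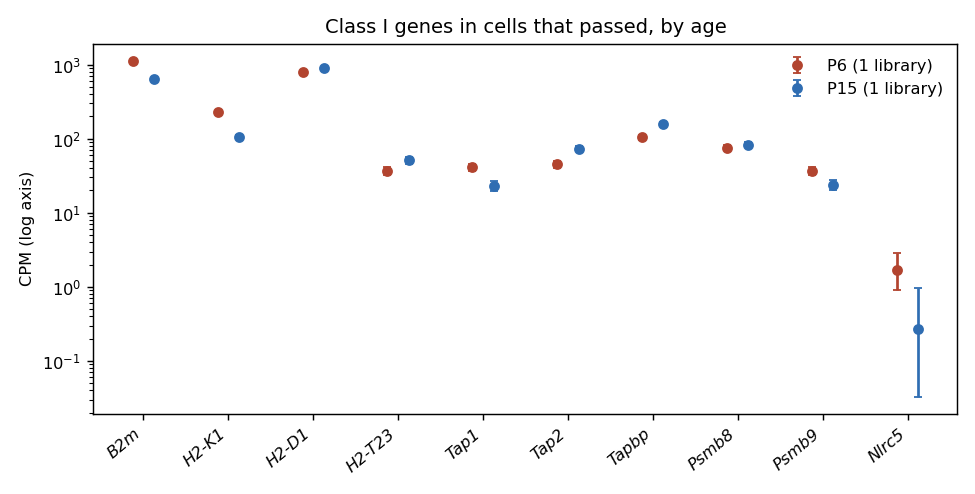
Level of each gene in CPM (log axis) in the 1424 P6 cells (red) and 1644 P15 cells (blue) that passed, with exact Poisson 95% intervals for counting error, 1 library per age. B2m, H2-K1, Tap1 and Psmb9 are lower at P15, Tap2, Tapbp and H2-T23 are higher, and the 2 ages are close for H2-D1 and Psmb8.

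Among the surface molecules, B2m, the light chain shared by all class I molecules, stood at 1103 CPM at P6 and 650 at P15 (ratio 0.589, 0.568 to 0.610). H2-K1, a classical heavy chain, stood at 229 and 106 (0.461, 0.423 to 0.502). H2-D1, the other classical heavy chain, was nearly level, at 788 and 888 (1.13, 1.09 to 1.17). H2-T23, the non-classical heavy chain that presents leader peptides to natural killer cell receptors, went from 36.9 to 51.0 (1.38, 1.18 to 1.62). The heavy chains and their light chain therefore did not keep a fixed ratio between the libraries.

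Of the peptide pump, Tap1 stood at 41.3 CPM at P6 and 23.3 at P15 (0.565, 0.466 to 0.682), while its partner Tap2 stood at 45.0 and 73.5 (1.63, 1.43 to 1.88). Tapbp, the loading chaperone, stood at 105 and 156, a ratio of 1.495 that lies just under the 1.5-fold limit (1.37 to 1.64). The immunoproteasome subunits also parted: Psmb8 was at 75.6 and 83.3 (1.10, 0.982 to 1.24), and Psmb9 at 37.0 and 24.01 (0.649, 0.535 to 0.786). Nlrc5 gave 13 UMIs at P6 and 2 at P15, in as many cells, too few for a comparison of the regulator at this depth.

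Beyond the level, the share of cells with a UMI set the ages apart. H2-K1 was found in 35.1% of P6 cells (500 of 1424, exact interval 32.6 to 37.7%). If every cell had drawn from the same rate at its own depth, 67.3% would have held an H2-K1 UMI. At P15 the found and the equal-rate shares were 33.4% and 36.2%, so nearly the same share of cells held H2-K1 at both ages although the P15 level was 0.461 times the P6 level. B2m was found in 89.5% of P6 cells against 98.5% at an equal rate, and in 86.5% against 89.1% at P15. H2-D1 was found in 85.7% against 96.1% at P6 and in 91.4% against 94.0% at P15. For Tap2 the shares were 20.01% against 21.1% at P6 and 27.6% against 27.2% at P15. B2m, H2-K1 and H2-D1 UMIs were thus gathered in fewer P6 cells than an equal rate gives, and Tap2 UMIs hardly at all. As a background, P6 barcodes with at least 2 retinal neural markers and no UMI of Pecam1 or Cdh5 (40 barcodes, median 3999 UMIs) held B2m in 30% and H2-K1 in 2.5%, with 185 CPM of summed class I genes. The corresponding 44 pericyte barcodes at P15 (median 3515 UMIs) held B2m in 61.4% and H2-K1 in 11.4%, with 903 summed CPM. The same types at the other age were few: 9 neural barcodes at P15 (median 2656 UMIs) stood at 640 CPM with B2m in 44.4% and no H2-K1, and 5 pericyte barcodes at P6 (median 5244 UMIs) at 704 CPM with B2m in 80% and no H2-K1.

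To compare single cells at equal depth, each cell was thinned to 3000 UMIs and shallower cells were left out, which kept 1245 P6 and 1163 P15 cells. The summed class I UMIs per thinned cell had a median of 4 at P6 and 6 at P15, so the typical cell held fewer at P6. The 90th percentile was 20 at P6 and 10 at P15, the 99th percentile 45.0 and 16.4, and the highest cell 77 and 27. The variance was 13.1 times the mean at P6 and 1.82 times at P15. At least 20 summed UMIs were held by 126 of 1245 P6 cells (10.1%) and by 3 of 1163 P15 cells (0.258%). The P6 library thus held a minority of cells rich in class I transcripts, while its median cell lay below that of P15.

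**Figure D2:**
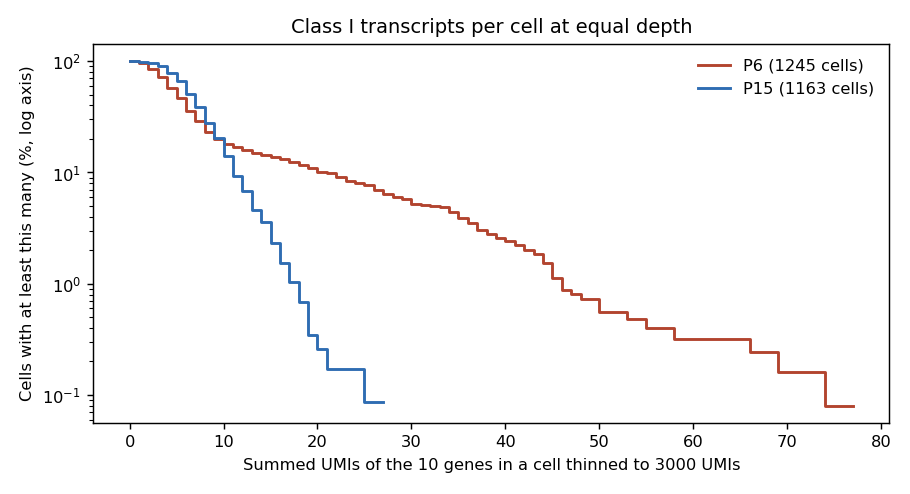
Share of cells (percent, log axis) that hold at least the number of summed class I UMIs on the x axis, after thinning every cell to 3000 UMIs, at P6 (red, 1245 cells) and P15 (blue, 1163 cells). The P6 line lies below the P15 line at low numbers, crosses it near 10 UMIs and extends to 77, while the P15 line ends at 27.

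H2-K1 alone showed such a minority as well. At least 5 H2-K1 UMIs were found in 140 of 1424 P6 cells (9.83%) and in 4 of 1644 P15 cells (0.243%), with 25 and 8 UMIs in the highest cell. Around this limit, 31 P6 cells held exactly 4 and 32 exactly 5. The 140 cells had a median depth of 5366.5 UMIs. Compared with the other P6 cells, which were set apart by H2-K1 itself, B2m was 6.10 times, H2-D1 5.54 times, Tap1 7.51 times, Psmb9 7.96 times and Tap2 2.34 times as high, as a description of cells chosen for one of these genes. Nlrc5 UMIs numbered 11 in these 140 cells and 2 in the remaining 1284. All 140 cells held at least 2 endothelial markers, their summed endothelial level was 7810 CPM against 7414 in the other P6 cells, and their leukocyte markers amounted to 1 UMI (1.29 CPM).

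Across the thinned P6 cells, B2m, H2-K1 and H2-D1 varied together, and pairs that included another member were weaker. The correlation of log counts (log of 1 plus the UMIs) of B2m with H2-K1 was r = 0.611, of B2m with H2-D1 0.566 and of H2-K1 with H2-D1 0.606, over 1245 cells that share a library and a depth. In the 1163 P15 cells the first of these was 0.109 and the second 0.119. Among the weaker P6 pairs, H2-K1 had r = 0.411 with Psmb8 and 0.407 with Tap1. B2m had r = 0.175 with Tapbp and 0.09 with Tap2, and Psmb9 had -0.0198 with Nlrc5. H2-K1 and the summed interferon-induced genes had r = 0.589 at P6 and 0.00489 at P15. Against Actb and Pecam1, genes used as a reference, H2-K1 had r of -0.0357 and 0.0715 at P6.

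The class I genes were then read against 10 interferon-induced genes that are not members: Ifit1, Ifit2, Ifit3, Isg15, Oasl2, Rsad2, Irf7, Usp18, Ifi44 and Rtp4. At P6 the summed class I level was 1301 CPM in the 792 cells with none of them, 1826 with 1, 3170 with 2, 5293 with 3, 7902 with 4, 7429 in the 21 cells with 5 and 10474 in the 21 cells with 6. At P15 it was 1926 in the 650 cells with none, 2171 in the 73 cells with 4 and 2864 in the 22 cells with 6. The climb across these steps was thus steep at P6 and shallow at P15, as the plot by number of interferon-induced genes shows. Cells were not thinned for these steps, and deeper cells can show more genes. From the cells with none to those with 3, the median depth rose from 3394.5 to 5419.5 UMIs at P15. With 6 it was 4986 at P15. At P6 the median depth was 4781 with none, 5046.5 with 1, 5947 with 2 and 4779 with 3. It was 5386 with 4, 5589 with 5 and 5582 with 6.

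**Figure D3:**
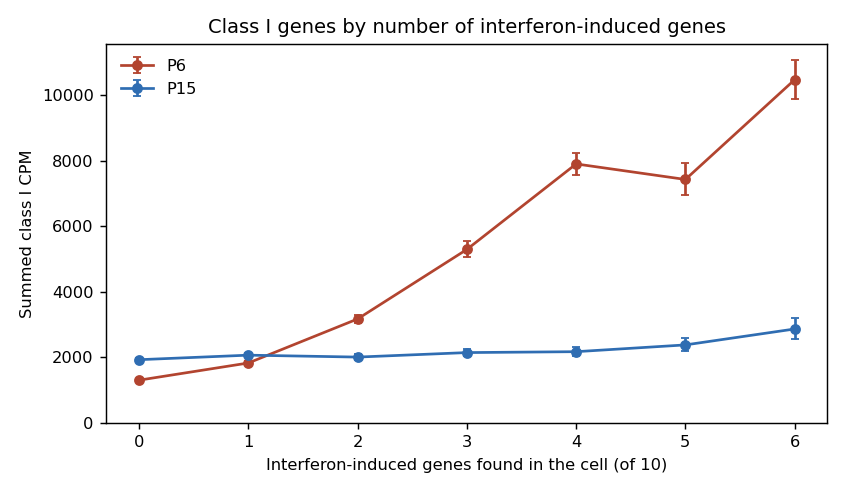
Summed class I level in CPM in cells grouped by how many of 10 interferon-induced genes were found in them, at P6 (red) and P15 (blue), for groups of at least 20 cells, with exact Poisson 95% intervals. The P6 points climb from 1301 to 10474 and the P15 points from 1926 to 2864. Cells were not thinned to equal depth.

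Cells with at least 4 of the 10 are called interferon cells here, a range of a count and not a cell type. They numbered 115 at P6 and 151 at P15, with 51 P6 and 73 P15 cells exactly at the limit and 68 and 134 with 3 of the genes. Their summed interferon-induced level was 1907 CPM at P6 and 1646 at P15, values that partly follow from choosing the cells by these same genes. The summed class I level of P6 interferon cells was 8945 CPM against 1848 in the other P6 cells (ratio 4.84, 4.69 to 4.99), and 9 of 9 members were at least 1.5-fold higher where 9.8% of 9300 genes were. At P15 it was 2418 against 2010 (1.20, 1.15 to 1.26), and 3 of 9 members were at least 1.5-fold higher where 4.6% of 9314 genes were. The difference between the ages in this contrast was not tested.

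Within P6 interferon cells the ratio to the other cells was 8.05 for H2-K1 (1144 against 142 CPM), 7.37 for Tap1 (196 against 26.6), 6.22 for Psmb9 (159 against 25.5) and 6.16 for H2-T23 (157 against 25.5). It was 5.50 for Psmb8, 4.67 for B2m and 4.49 for H2-D1, and lower for Tapbp at 2.72 and Tap2 at 2.60. Nlrc5 gave 10 UMIs in the 115 interferon cells and 3 in the other 1309, which together are under the minimum of 50 UMIs for a ratio. At P15 the members past 1.5-fold in interferon cells were Tap1 (2.20, 1.48 to 3.18), Psmb8 (1.91, 1.55 to 2.34) and Psmb9 (1.77, 1.17 to 2.61), which belong to peptide supply. The P15 ratios of B2m (1.17), H2-K1 (1.10) and H2-D1 (1.17) stayed close to 1.

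MHC class II genes, which present peptides to CD4 T cells and are normally a property of antigen-presenting leukocytes, were read beside them. At least 1 UMI of H2-Aa, H2-Ab1, H2-Eb1, Cd74 or Ciita was found in 156 P6 cells (10.96%) and 45 P15 cells (2.74%). Cd74, the invariant chain, stood at 94.3 CPM at P6 and 2.85 at P15, and H2-Aa at 93 and 1 UMIs. In P6 interferon cells the summed class II level was 989 CPM against 62.0 in the other P6 cells, and in P15 interferon cells it was 4.89. P6 cells with a class II UMI had a summed class I level of 7615 CPM against 1797 without, a ratio of 4.24 with 9 of 9 members past 1.5-fold, where 7.1% of genes were. At P15 the same ratio was 1.15 (1.06 to 1.26), with 1 of 9 members past the limit and 10.4% of genes. Of the 140 H2-K1-rich P6 cells, 86 held a class II UMI and 74 were interferon cells. The defining leukocyte markers Ptprc and Cd3e had no row in either table, and the other leukocyte markers together gave 1 UMI in the P6 interferon cells.

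The P6 library also differed within itself by the sex-linked transcripts of its cells. Cells were divided into those with an Xist UMI and no UMI of the Y-linked Ddx3y, Eif2s3y, Kdm5d or Uty (Xist-only cells, 246 at P6 and 96 at P15) and the converse (Y-linked-only cells, 339 and 821). Cells with neither numbered 830 and 715, and the labels give no sex. At P6 the summed class I level was 3406 CPM in Xist-only and 1336 in Y-linked-only cells, a ratio of 2.55 (2.43 to 2.68). All 9 members above the minimum were at least 1.5-fold higher in Xist-only cells where 5.67% of 7015 genes were, led by H2-K1 at 6.16 (396 against 64.3 CPM) and Psmb9 at 4.62. At P15 the levels were 2006 and 2055 (0.976, 0.908 to 1.05), with 0 of 9 members at least 1.5-fold higher (7.19% of genes) and 1 lower (9.25%), Tap1, on 5 UMIs in Xist-only cells.

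The class I-rich P6 cells were mostly not Y-linked-only. Of the 140 P6 cells with at least 5 H2-K1 UMIs, 47 were Xist-only (19.1% of that class, exact interval 14.4 to 24.6%), 4 were Y-linked-only (1.18%, 0.322 to 2.99%) and 89 held neither. Interferon cells made up 12.6% of Xist-only cells (8.73 to 17.4%) and 2.06% of Y-linked-only cells (0.834 to 4.21%) at P6, against 11.5% and 10.8% at P15. Class II UMIs were found in 17.1% of P6 Xist-only and 2.95% of P6 Y-linked-only cells. Median depths were close at P6, 5022 and 5351 UMIs. At 3000 UMIs per cell, 34 of 206 Xist-only P6 cells (16.5%) held at least 20 summed class I UMIs, against 2 of 302 Y-linked-only cells (0.662%). Sex, animal and litter cannot be told apart here, since the sources do not give which cells came from which mouse.

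The direction of the age ratio depended on these classes. In Xist-only cells the summed level went from 3406 to 2006 CPM (ratio 0.589, 0.546 to 0.635), with 0 members at least 1.5-fold higher (16.1% of 5201 genes) and 4 lower (15.1%). In Y-linked-only cells it went from 1336 to 2055 (1.54, 1.47 to 1.61), with 7 of 9 members at least 1.5-fold higher (19.6% of 8812 genes) and 0 lower (10.2%). Thinned to equal depth, the median Xist-only cell held 5 summed class I UMIs at P6 (206 cells) and 5 at P15 (60 cells). The median Y-linked-only cell held 3.5 at P6 (302 cells) and 6 at P15 (656 cells). At least 20 were held by 34 of the Xist-only cells at P6 (16.5%) and by 0 at P15. The summed fall in Xist-only cells was thus not seen in their median cell. H2-D1 went from 463 to 898 CPM in Y-linked-only cells (1.94), H2-T23 from 30.4 to 57.3 (1.89), Tap2 from 34.99 to 72.5 (2.07), Tapbp from 90.6 to 155 (1.72), Psmb8 from 39.6 to 78.6 (1.98), Psmb9 from 12.9 to 24.3 (1.89) and H2-K1 from 64.3 to 99.9 (1.55). B2m (1.10, 583 to 643) and Tap1 (1.40, 17.5 to 24.5) lay under the limit. The summed ratio also turned to 1.09 (1.06 to 1.11) without interferon cells and to 1.14 (1.11 to 1.17) without cells with a class II UMI, the latter chosen after seeing the data. The P15 level itself stayed between 2006 and 2055 CPM in these selections, and the P6 level moved between 1336 and 3406.

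**Figure D4:**
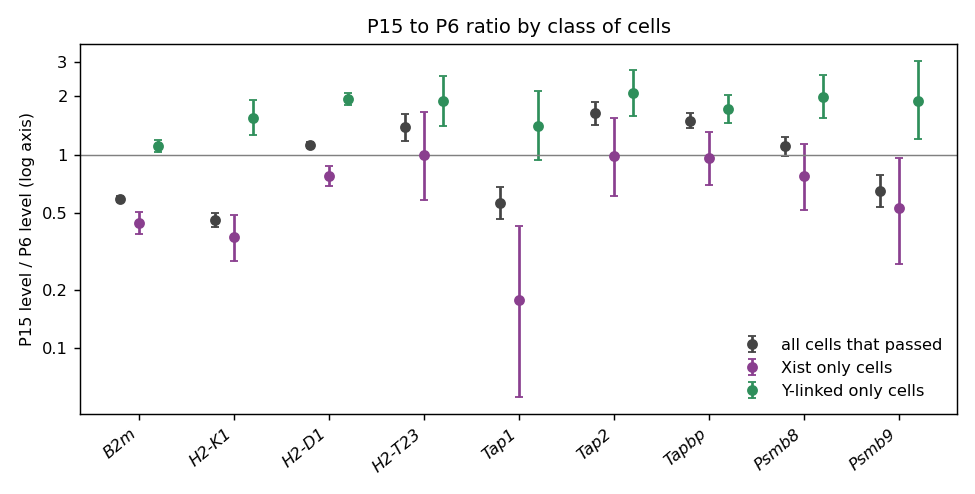
Ratio of the P15 to the P6 level (log axis, grey line at 1) of the 9 genes with at least 50 UMIs, in all cells that passed (grey), in Xist-only cells (purple) and in Y-linked-only cells (green), with 95% intervals for counting error. In Y-linked-only cells all 9 ratios lie above 1 and the Tap1 interval reaches below it; in Xist-only cells 8 lie below 1.

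The clusters of the study were taken from its source data, which gave a label to 1560 P6 cells and to the first 438 P15 cells of the table. The study formed the clusters from expression in these same cells. Whether the members were among the genes used was not given in the sources used here, so these levels are a description. At P6 the summed class I level ran from 1558 CPM in Proliferative cells through 1716 (Primitive), 1805 (Cap-Venous), 1810 (Stalk), 1826 (Tip) and 2544 (Capillary) to 4617 in Cap-Arterial, 5405 in Arterial and 9314 in Venous cells. Cap-Venous, Stalk and Tip did not differ beyond their counting intervals. At P15 the range was narrower, from 1833 in Proliferative to 2573 in Cap-Arterial and 2832 in the 11 Arterial cells, and the Venous cluster held 2 cells.

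**Figure D5:**
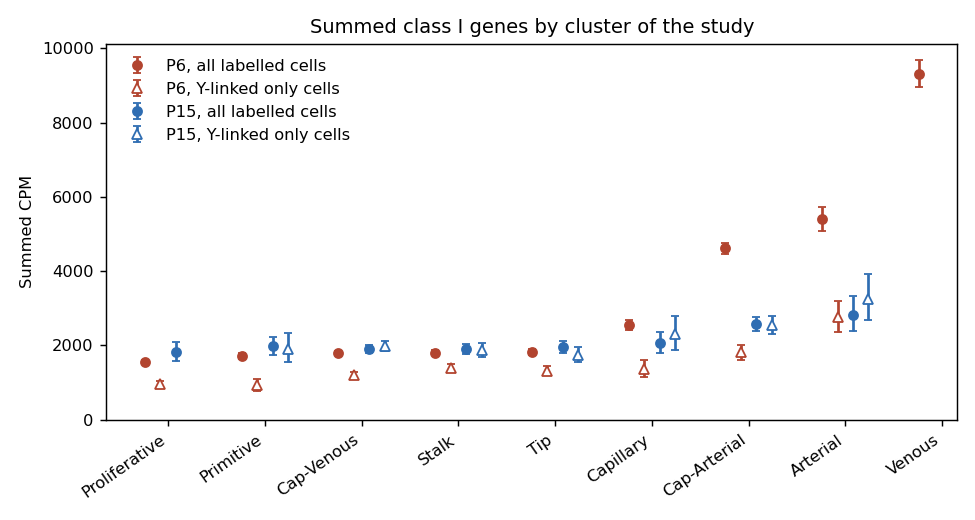
Summed class I level in CPM by cluster of the study at P6 (red) and P15 (blue), in all labelled cells (filled circles) and in Y-linked-only cells (open triangles), for groups of at least 7 cells, with exact Poisson 95% intervals. The P6 Venous, Arterial and Cap-Arterial clusters stand above the rest in all cells, and the Y-linked-only P6 cells lie below the P15 cells of the same cluster.

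The P6 Venous cluster of 42 cells had 9 of 9 members at least 1.5-fold above the other labelled cells, where 13.6% of 9834 genes were (summed ratio 4.39, 4.21 to 4.57). Tap1 stood at 218 CPM there against 34.0 elsewhere (6.41), H2-K1 at 1142 against 183 (6.24), B2m at 4235 against 956 (4.43), H2-D1 at 2808 against 683 (4.11), and Tap2 at 80.8 against 41.5 (1.95). Of the 42 cells 39 were interferon cells, 25 held a class II UMI, 15 were Xist-only and 0 were Y-linked-only. For the 39 Venous interferon cells against interferon cells of other P6 clusters, a comparison chosen after seeing the data, the summed ratio was 1.23 (1.17 to 1.29) and 0 of 9 members were at least 1.5-fold higher or lower, where 5.26% and 8.6% of 3118 genes were. Outside the Venous cluster, interferon cells still held 4.71 times the class I level of the other P6 cells.

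Cap-Arterial cells at P6 (162 cells) also had 9 of 9 members past 1.5-fold, where 16.4% of genes were, with H2-T23 at 102 against 27.0 CPM (3.76), H2-K1 at 517 against 182 (2.84) and Psmb8 at 165 against 63.9 (2.58). The 40 Arterial cells had 9 of 9 as well, where 24.4% of genes were. Interferon cells made up 17.3% of Cap-Arterial and 17.5% of Arterial cells, against 1.29% to 6.06% of the Proliferative, Primitive, Stalk, Tip, Cap-Venous and Capillary clusters. In Y-linked-only P6 cells, of which 7 of the 339 that passed were interferon cells, the arterial clusters were also highest: 2755 CPM in 13 Arterial and 1812 in 34 Cap-Arterial cells, against 928 to 1389 in the other clusters with such cells. At P15 the Cap-Arterial level was 1.32 times that of the other labelled cells (1.22 to 1.43), with 3 of 7 members past 1.5-fold where 11.2% of genes were: H2-T23 (1.55), Tap2 (1.65) and Psmb8 (1.62). The arterial side thus stood highest among clusters of more than 10 cells at P15, and second to Venous at P6.

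Between ages, the summed class I ratio within clusters was 0.557 (0.515 to 0.602) in Cap-Arterial and 0.814 (0.703 to 0.940) in Capillary cells. It was 1.06 (0.994 to 1.12) in Cap-Venous, 1.05 (0.969 to 1.14) in Stalk, 1.07 (0.974 to 1.18) in Tip and 1.15 (1.003 to 1.32) in Primitive cells. In Cap-Arterial cells, 4 of 9 members were at least 1.5-fold lower at P15, where 12.7% of 3855 genes were: H2-K1 (0.275), Psmb9 (0.368), B2m (0.409) and Tap1 (0.4602). The ages lay closer in selections of these cells: Cap-Arterial cells without a class II UMI stood at 2644 CPM at P6 and 2572 at P15, and those below 4 interferon genes at 3014 and 2487. In Y-linked-only Cap-Arterial cells the direction was the opposite, 1812 and 2549 CPM, and so was that of the median over all Cap-Arterial cells, 2288 and 2605 CPM.

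The 5 genes whose level over the 9 P6 clusters was most like that of the summed members, among genes that are not members, were Xaf1 (Pearson r = 0.985), Ifi47 (0.977), Ifi35 (0.969), H2-Q4 (0.964) and Ube2l6 (0.963), of 5862 genes with at least 200 UMIs in labelled P6 cells. The clusters share 1 library, and the Venous cluster is the highest point for each of these genes.

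Other genes of the pathway were counted in the same way. Of 39 listed companions, 34 had a row in both tables and 31 passed the minimum, of which 11 were at least 1.5-fold higher at P15 and 3 lower, where 18.8% and 11.8% of all genes were, with a median ratio of 1.25. In P6 interferon cells 14 of 30 were at least 1.5-fold higher and 0 lower, where 9.8% and 9.23% of all genes were. Those 14 included all 5 other heavy chains that passed, H2-Q4 (305 against 43.7 CPM, 6.99), H2-T22 (5.32), H2-Q6 (35 against 16 UMIs) and H2-Q7 (8.55) among them, although these genes share many 31-base words. They also included the inducible proteasome genes Psmb10 (2.59), Psme2 (2.05) and Psme1 (1.81), and the regulator Irf1 (2.67). The constitutive catalytic subunits that Psmb8 and Psmb9 replace were not higher there, with Psmb5 at 0.852 (0.720 to 1.003) and Psmb6 at 0.869 (0.753 to 0.999). Calr, a general folding chaperone, stood at 0.975. Of the class I-like genes, Fcgrt, the neonatal Fc receptor that pairs with B2m, was 3.57 times higher at P15 (92.6 and 330 CPM) and 1.23 times in P6 interferon cells. Mr1, which presents vitamin metabolites, was at 9.41 and 24.3 CPM, and Hfe, a regulator of iron uptake, at 37.3 and 57.9. Cd1d1, which presents lipids, went the other way, from 43.3 to 29.8 CPM (0.690), and in Y-linked-only cells 3 of these 4 genes were at least 1.5-fold higher at P15 and 1 lower. H2-Q6 gave 51 UMIs at P6 and 0 at P15, where 0 UMIs allow up to 0.407 CPM. H2-Q7 gave 105 UMIs at P6 and had no row at P15, as holds for genes without any UMI.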

How the data were processed

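Retinal endothelial cells (CD31+CD45- by FACS) of wild-type C57BL/6 mice were measured as 1 droplet library at P6 and 1 at P15. Per the file headers and values, each deposited table holds raw UMI counts, a gene by row and a cell by column, not normalised. The submitters' processing notes name mm10 and Seurat 3.0. The aligner, the kit end and the treatment of reads shared between genes were not given in the sources used here. Ensembl identifiers were matched without their version to GENCODE M21 symbols.

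The exclusion limits stated by the study were applied, and the cells kept are not the same set as those the study labelled: of its 1560 labelled P6 cells 1399 passed here, and of the 438 at P15, 409. Cluster values use every labelled cell. Cells had 200 to 3500 genes and a mitochondrial share of up to 5%, and those in which Cd63, Neurod1 or Hbb-bt was found were dropped. No doublet caller was run. Counts were summed over cells and divided by the total of those cells (CPM, on a scale of 1000000). Levels carry exact Poisson 95% intervals, shares exact Clopper-Pearson intervals and ratios conditional binomial intervals, all for counting error only, since UMIs of 1 library are no replicates. A gene entered a comparison with at least 50 UMIs over both sides and was counted from a 1.5-fold ratio. A count of 0 allows up to 3 counts. The likeness over clusters used log2(CPM + 10). Thinning drew 3000 UMIs per cell without replacement (seed 20). The ratio step was tested on simulated Poisson counts, which vary less between cells than the P6 counts did. For thinning, only the draw without replacement was tried, on simulated counts of a single gene. Python 3.11.15, numpy 2.4.6, scipy 1.17.1 and pandas 2.3.3 were used.

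All 10 members, 39 companions, class II genes, interferon-induced genes and markers were named by a list, and the members and lists were chosen with earlier results of these data known. The cluster names are the study's, from its source data.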

Additional observations from a re-analysis of the deposited data

Results flagged for a closer look

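For 4 members the P15 to P6 ratio lay on opposite sides of 1 in Xist-only and in Y-linked-only cells, with counting intervals that did not cross 1. The difference between the classes was not tested, since each class holds cells of the same 2 libraries. The ratio of B2m was 0.444 in Xist-only and 1.10 in Y-linked-only cells. That of H2-K1 was 0.375 and 1.55, that of H2-D1 0.778 and 1.94, and that of Psmb9 0.533 and 1.89. B2m also changed side between ages in the Tip cluster, where it stood at 0.805 times the level of the other labelled cells at P6 and 1.19 times at P15, which was likewise not tested.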

How the results depend on the processing

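No paired analysis was possible because each age has 1 library. The summed P15 to P6 ratio of 0.835 became 1.09 without interferon cells, 1.54 in Y-linked-only cells and, chosen after seeing the data, 1.14 without cells with a class II UMI, so its direction turned. It moved to 0.589 in Xist-only cells, 0.938 over every barcode, 0.873 in labelled cells, 0.756 with mitochondrial, ribosomal protein and haemoglobin genes left out of the total, 0.794 as a mean over cells and 0.951 as a mean of ratios within clusters. Of the 9 members, 5 were past 1.5-fold, and 3 without interferon cells, all 3 higher. In the other alternatives between 4 and 7 were.

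The Venous to other P6 ratio of 4.39 was 4.17 at 3000 UMIs per cell, 4.15 as a mean over cells and 5.11 without interferon cells, on 3 Venous cells, with 7 members past 1.5-fold higher and 2 lower in place of 9 and 0. Against interferon cells of other clusters, added after seeing the data, it was 1.23 with 0 members past 1.5-fold in place of 9. The interferon cell ratio of 4.84 at P6 was 4.61 from 3 genes, 4.67 from 5 genes, 4.55 over every barcode, 4.06 in Xist-only cells and, both added after seeing the data, 2.25 in Y-linked-only cells (7 interferon cells) and 3.996 without class II UMIs. At P15 the ratio of 1.20 was 1.31 from 5 genes, 1.38 at 3000 UMIs, 1.12 over every barcode and 1.54 in Xist-only cells. The causes of these shifts were not tested.

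With 1 library per age, age cannot be told apart from library, mouse or litter. The mix of sex-linked classes also differed between the libraries. Xist-only and Y-linked-only cells numbered 246 and 339 at P6 and 96 and 821 at P15. The paper states that males and females were used in equal numbers in its experiments. Nlrc5, at 15 UMIs in all, lies below what this depth resolves. How UMIs were split among the heavy chains, which share part of their sequence, is not known. P15 cluster labels cover 438 cells, and P15 Venous values rest on 2.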

Other observations

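Cells with neither an Xist nor a Y-linked UMI, 830 at P6 and 715 at P15, had summed class I levels of 2697 and 2060 CPM, a ratio of 0.764 (95% interval for counting error 0.740 to 0.788). At P6 this class lay between the Xist-only and the Y-linked-only cells, and 76 of its 830 cells (9.16%) were interferon cells. In Y-linked-only cells the interferon-induced genes summed to 103 CPM at P6 and 429 at P15, so both they and the class I genes stood higher at P15 in that class, while over all cells that passed the interferon-induced genes summed to 299 and 418.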
